A study of Mus musculus with 6 samples.

Results

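The genes described here are the 4 that load the fast transmitters glutamate and GABA into synaptic vesicles, *Slc17a7* (VGLUT1), *Slc17a6* (VGLUT2), *Slc17a8* (VGLUT3) and *Slc32a1* (VGAT), out of the 55357 genes counted in each library. They were found by symbol and were selected on the measured difference between sh*Pla2g4e* and shCtrl, so their own levels, fold changes and ratios are given as a description without a test. The study silenced *Pla2g4e*, which codes for an enzyme that makes N-acyl phosphatidylethanolamines, in primary cultures of cortical and hippocampal neurons from E18 embryos of wild type C57BL/6N mice. Lentiviruses were added at DIV4 (day in vitro 4) and RNA was collected at DIV14. Of the 6 RNA-seq libraries, 3 came from cultures that received a scrambled shRNA (shCtrl) and 3 from cultures that received an shRNA against *Pla2g4e* (sh*Pla2g4e*). All 6 cultures therefore carried a lentiviral shRNA, and a single active shRNA, named sh2, stood for the knockdown. The labels name the cells as neurons, but the cultures also held glial transcripts, which are given with the marker genes further on. *Pla2g4e* itself averaged 18.2 CPM (counts scaled to a common library size with edgeR's TMM factors) in sh*Pla2g4e* and 36.2 in shCtrl, or 50.5% of the shCtrl mean.

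A vesicular transporter uses the electrochemical gradient of protons that a vacuolar ATPase builds across the vesicle membrane to concentrate its transmitter inside the vesicle. VGLUT1 and VGLUT2 mark glutamatergic terminals: in the adult forebrain VGLUT1 prevails in neurons of the cortex and hippocampus and VGLUT2 in those of the thalamus and brainstem, while many young cortical neurons carry VGLUT2 before VGLUT1 rises. VGLUT3 is found in scattered neurons that often release another transmitter as well, and VGAT loads GABA and glycine in inhibitory neurons. The VGLUT genes belong to 1 family (Slc17), whereas VGAT comes from an unrelated one.

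In the VGLUT family the coding sequences of the principal transcripts (GENCODE vM21) were 71.9% identical between *Slc17a7* and *Slc17a6*, 70.0% between *Slc17a7* and *Slc17a8* and 71.1% between *Slc17a6* and *Slc17a8*, whereas *Slc32a1* aligned to them with 50.2% to 52.7% of identical bases. The knockdown construct is shown because its guide strand can pair through its seed, bases 2 to 8, with other transcripts. The seed and the bases that pair with it are in capitals.
sh2 target in *Pla2g4e*: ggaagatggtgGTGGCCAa
sh2 guide: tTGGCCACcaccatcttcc

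The 7 bases of the seed site, GTGGCCA, were searched on the sense strand of 1 coding transcript per gene (GENCODE vM21, the principal one where it is marked) and occurred in all 4 transporters. *Slc17a7* held 3 sites, *Slc17a6* 2, *Slc17a8* 2 and *Slc32a1* 4. For comparison, 35.9% of the transcripts of 15816 genes held a site, 25.5% in the coding sequence and 11.9% in the 3′ UTR. The windows below have 27 bases, with the site in capitals, and show the sites that the VGLUT genes share, the sites in 3′ UTRs and the site in *Slc32a1* that pairs with most bases.
*Slc17a7* coding site (chr7:45168905-45168911, GRCm38, plus strand): caacctgggcGTGGCCAtcgtgtccat
*Slc17a6* coding site (chr7:51625471-51625477, plus strand): taacctgggcGTGGCCAtcgtggacat
*Slc17a8* coding site (chr10:89606633-89606639, minus strand): caaccttggaGTGGCCAttgtggaaat
*Slc17a7* second coding site (chr7:45172948-45172954, plus strand): ctccaagggcGTGGCCAtctccttcct
*Slc17a6* second coding site (chr7:51667463-51667469, plus strand): tactagagggGTGGCCAtctccttctt
*Slc17a7* 3′ UTR site (chr7:45175883-45175889, plus strand): cggtttctcaGTGGCCAtttgttgtgt
*Slc17a8* 3′ UTR site (chr10:89575130-89575136, minus strand): atataaaggaGTGGCCAttaaatttaa
*Slc32a1* coding site (chr2:158614585-158614591, plus strand): cctcttcctgGTGGCCAaggcgctgct

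The 2 coding sites of *Slc17a7* lay at aligned positions of *Slc17a6*, in exons 2 and 10 of both genes, and the first of them also at the aligned position of *Slc17a8*, in its exon 2. None of the VGLUT sites was followed by an A. The longest unbroken match to the 19-base target anywhere in each VGLUT transcript, at a site or elsewhere, was 8 bases. All 4 sites of *Slc32a1* lay in its coding sequence, and 1 of them was followed by an A and matched the target over 10 bases. Among 2057 transcripts within 10% of the length of that of *Slc17a7*, 1.65% held at least 3 sites, and among 2048 within 10% of that of *Slc32a1*, 0.439% held at least 4. The corresponding share with at least 2 sites was 11.5% for *Slc17a6* and 13.9% for *Slc17a8*. The site was thus present in the transporters that were lower and in those that were higher in sh*Pla2g4e*, and its part in their levels was not tested.

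*Slc17a7* was the most abundant transporter and the one with the largest difference between the groups. The gene lies on chromosome 7 at 44813373 to 44825566 (GRCm39, plus strand) and was counted over 5392 bases of exon. Replicates 1, 2 and 3 of shCtrl stood at 842, 744 and 648 CPM, and those of sh*Pla2g4e* at 312, 290 and 297 CPM. Every sh*Pla2g4e* library lay below every shCtrl library. On average it measured 745 ± 97.0 CPM in shCtrl and 299.6 ± 11.2 CPM in sh*Pla2g4e* (SD, n = 3 each), so that 40.2% of the shCtrl level was left, and the log2 fold change was −1.31 ± 0.0945 (SE). In same-numbered pairs it was −1.43, −1.36 and −1.13. The reads behind these values were 14600 to 17361 in shCtrl and 5199 to 7456 in sh*Pla2g4e*.

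*Slc17a6*, the other main glutamate carrier, went the opposite way. It lies on the same chromosome at 51271754 to 51320867 (plus strand), with 5399 bases of exon. Replicates 1 to 3 of shCtrl were at 57.4, 51.3 and 33.1 CPM, those of sh*Pla2g4e* at 94.2, 109 and 62.1 CPM. The groups did not overlap, but the lowest sh*Pla2g4e* library stood only just above the highest shCtrl library, with 95% counting intervals of 58.5 to 65.9 and 54.2 to 60.8 CPM that overlap. It averaged 47.3 ± 12.6 CPM in shCtrl and 88.3 ± 23.8 CPM in sh*Pla2g4e* (SD, n = 3), for a log2 fold change of 0.91 ± 0.185 (SE). Replicate 3 was lowest in both groups, and within pairs the level was 1.64-, 2.12- and 1.88-fold that of shCtrl.

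*Slc17a8*, on chromosome 10 at 89409882 to 89457115 (minus strand, 4720 bases of exon), was close to the lower end of what these libraries measure, with 25 to 37 reads in shCtrl and 44 to 60 in sh*Pla2g4e*. Its level was 1.21, 1.86 and 1.598 CPM in shCtrl replicates 1 to 3, against 2.51, 2.31 and 2.51 CPM in sh*Pla2g4e*. All sh*Pla2g4e* libraries were higher, although the 95% counting interval of shCtrl replicate 2 (1.31 to 2.57 CPM) overlapped those of all 3 sh*Pla2g4e* libraries, of which the lowest began at 1.72 CPM. The log2 fold change was 0.65 ± 0.284 (SE), from 1.56 ± 0.327 to 2.45 ± 0.115 CPM (SD, n = 3 each).

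*Slc32a1* was lower in sh*Pla2g4e*, less so than *Slc17a7*. It lies on chromosome 2 at 158452687 to 158457668 (plus strand, 2797 bases of exon). Replicates 1 to 3 of shCtrl were at 63.9, 58.1 and 60.5 CPM and those of sh*Pla2g4e* at 39.4, 39.2 and 38.6 CPM, without overlap. The average was 60.8 ± 2.94 CPM in shCtrl and 39.1 ± 0.399 CPM in sh*Pla2g4e* (SD, n = 3), leaving 64.2% of the shCtrl level and a log2 fold change of −0.64 ± 0.0823 (SE). Its absolute level is uncertain: in the annotation 24.9% of its exon bases lie under *Gm14205* on the opposite strand, and the counting did not use strand, so that reads in the shared bases cannot be given to either gene. *Gm14205* itself had 0 reads in 5 libraries and 1 read in the other.

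**Figure D1:**
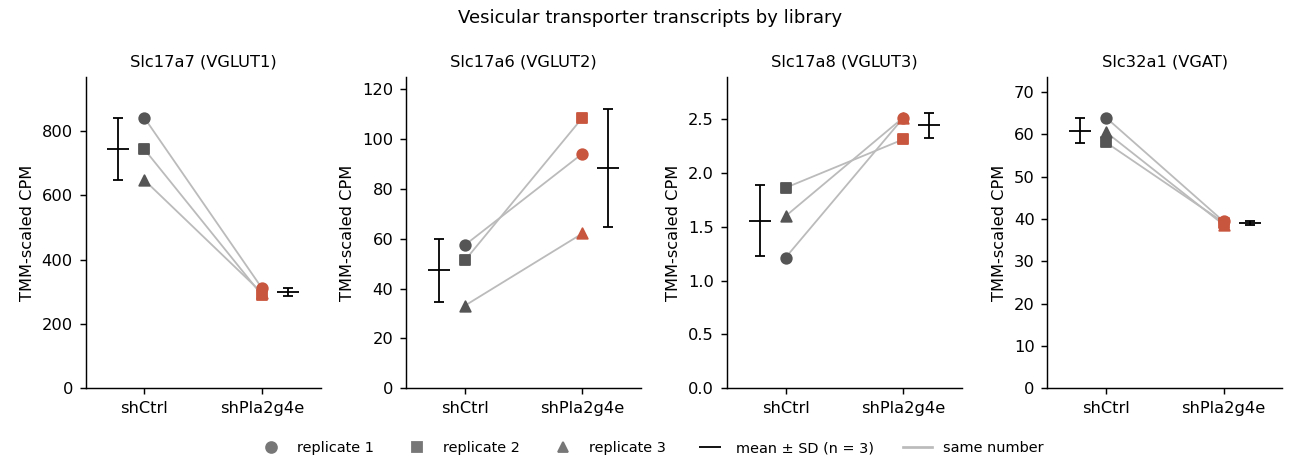
Level of each vesicular transporter in TMM-scaled CPM (vertical axes, linear and different for each gene) in the 3 shCtrl (grey) and 3 shPla2g4e (red) libraries; black bars are the mean ± SD (n = 3) and grey lines join libraries of the same number. Slc17a7 (745 to 299.6 CPM) and Slc32a1 (60.8 to 39.1 CPM) are lower in shPla2g4e and Slc17a6 (47.3 to 88.3 CPM) and Slc17a8 (1.56 to 2.45 CPM) higher, with no overlap between groups.

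All 4 genes passed the filter on low counts. At an adjusted p of 0.01, edgeR called *Slc17a7*, *Slc17a6* and *Slc32a1*, 3 of the 4, and did not call *Slc17a8*. The same 3 passed with the replicate number as a block. Across all 21876 genes tested 6.49% were called, and 15.5% were called with the block. No overlap between the groups, seen in 4 of 4 transporters, was seen in 30.0% of all genes. Since the transporters were picked by these same differences, nothing follows from these shares about them. Their median log2 fold change was 0.005, beside 0.029 over all genes.

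The transporters also differed in how much they varied within a group. The within-group SD of log2 CPM was 0.418 for *Slc17a6*, larger than that of 99.7% of the 2416 genes within 0.5 log2 units of its level, whose median was 0.0981. With same-numbered libraries taken as pairs, the spread of *Slc17a6* came down to 0.130, larger than that of 86.7% of the same genes. *Slc32a1*, at a similar level in CPM, had an SD of 0.0502, and 8.34% of its 2638 neighbours in level varied less. *Slc17a7* had an SD of 0.139 and 75.4% of genes at its level varied less.

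Levels can be compared between genes when given per kb of exon. In shCtrl the order was *Slc17a7* (138 ± 18.0 CPM per kb), *Slc32a1* (21.8 ± 1.05), *Slc17a6* (8.76 ± 2.34) and *Slc17a8* (0.330 ± 0.0692; SD, n = 3), and no neighbours in this order overlapped. In sh*Pla2g4e* *Slc17a7* remained highest at 55.6 ± 2.08 CPM per kb. *Slc17a6* at 16.3 ± 4.40 and *Slc32a1* at 14.0 ± 0.143 CPM per kb did not differ beyond their spread, *Slc17a6* being the higher in replicates 1 and 2 and the lower in replicate 3. This order depends on the length used. Per kb of the principal coding transcript, *Slc32a1* stood at 0.619, 0.534 and 0.920 of *Slc17a6* in sh*Pla2g4e* replicates 1 to 3, below it in each library. *Slc17a8* remained lowest at 0.518 ± 0.0245 CPM per kb. Over the 2100 exon bases of *Slc32a1* that no other gene shares, its level was 29.0 ± 1.40 in shCtrl and 18.6 ± 0.190 CPM per kb in sh*Pla2g4e*, still within the range of *Slc17a6* in the latter.

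The 3 VGLUT transcripts together came to 167, 148 and 127 CPM per kb in shCtrl replicates 1 to 3 and to 75.8, 74.4 and 67.1 in sh*Pla2g4e*. The sh*Pla2g4e* mean was 49.2% of the shCtrl mean. The loss of *Slc17a7* was 82.6 CPM per kb and the gain of *Slc17a6* 7.59 CPM per kb. VGLUT2 made up 6.37%, 6.42% and 4.84% of this sum in shCtrl replicates 1 to 3 and 23.0%, 27.0% and 17.1% in sh*Pla2g4e*. VGLUT1 went from 93.9% ± 0.868 to 76.9% ± 4.91 and VGLUT3 from 0.229% ± 0.0654 to 0.718% ± 0.0689 (SD, n = 3 each). VGLUT1 transcripts were thus the majority in every library of both groups.

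**Figure D2:**
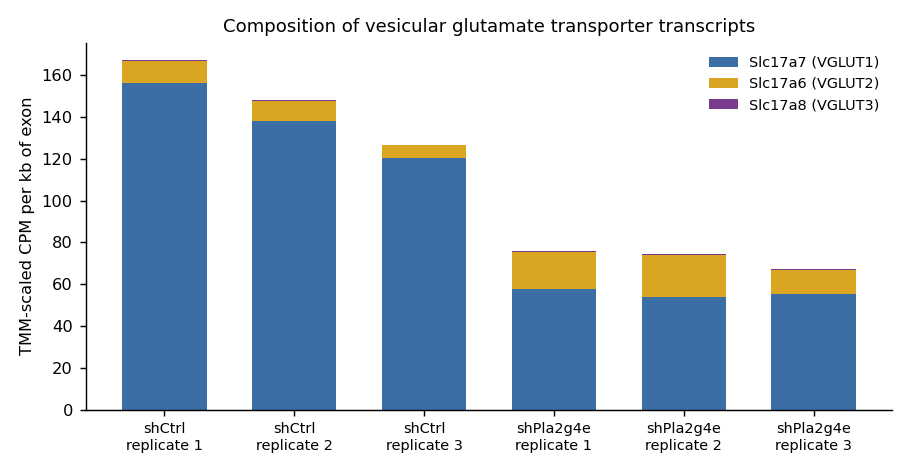
Stacked bars give the TMM-scaled CPM per kb of exon of Slc17a7, Slc17a6 and Slc17a8 in each of the 6 libraries. The sum is 127 to 167 in shCtrl and 67.1 to 75.8 in shPla2g4e, and the Slc17a6 part grows from at most 6.42% to at least 17.1% of it.

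Ratios between transporters within a library do not depend on how the libraries are scaled to each other. The ratio of *Slc17a6* to *Slc17a7*, in reads per kb of exon, was 0.0681, 0.0688 and 0.0510 in shCtrl replicates 1 to 3 and 0.302, 0.374 and 0.209 in sh*Pla2g4e*. The highest shCtrl ratio had a 95% counting interval of 0.0645 to 0.0734 and the lowest sh*Pla2g4e* ratio one of 0.195 to 0.223. On the geometric mean the ratio was 4.62-fold higher in sh*Pla2g4e*, and within pairs 4.43-, 5.43- and 4.09-fold. Replicate 3 had the lowest ratio of each group.

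The ratios of the GABA transporter to VGLUT1 and to all VGLUT moved less. The ratio of *Slc32a1* to *Slc17a7* was 0.146, 0.150 and 0.180 in shCtrl and 0.244, 0.260 and 0.251 in sh*Pla2g4e*, a log2 difference of 0.67. The sum of the 3 VGLUT transcripts was 7.31, 7.12 and 5.86 times *Slc32a1* in shCtrl and 5.38, 5.31 and 4.86 times in sh*Pla2g4e*, a log2 difference of −0.38. The groups did not overlap in either ratio. Per kb of the principal coding transcript, the VGLUT sum was 10.7 to 13.3 times *Slc32a1* in shCtrl and 8.51 to 9.25 times in sh*Pla2g4e*, and *Slc32a1* to *Slc17a7* was 0.0791 to 0.0973 and 0.132 to 0.141, so that the levels of these ratios depend on the length while the groups stay apart with either. Against *Slc17a6*, *Slc32a1* went from 2.15, 2.19 and 3.53 in shCtrl to 0.808, 0.696 and 1.20 in sh*Pla2g4e*.

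The ratio of *Slc17a8* to *Slc17a6* overlapped between the groups, with means of 0.0403 ± 0.0156 and 0.0337 ± 0.0113 (SD, n = 3 each). Its log2 difference of −0.23 turned to 0.04 without shCtrl replicate 3. *Slc17a8* to *Slc17a7* was 3.94-fold higher in sh*Pla2g4e* on the geometric mean, without overlap.

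**Figure D3:**
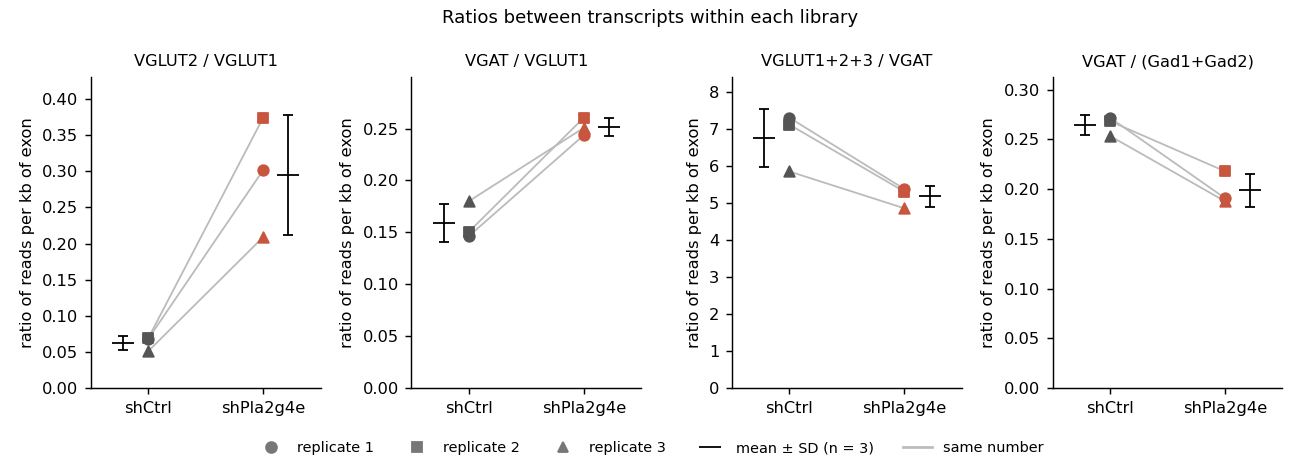
Ratio of reads per kb of exon between transcripts within each library (linear axes from 0), for VGLUT2 to VGLUT1, VGAT to VGLUT1, all VGLUT to VGAT, and VGAT to the sum of Gad1 and Gad2; black bars are the mean ± SD (n = 3) and grey lines join same-numbered libraries. The VGLUT2 to VGLUT1 ratio lies at 0.0510 to 0.0688 in shCtrl and 0.209 to 0.374 in shPla2g4e.

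Genes that make, take up and break down GABA can be set beside VGAT. *Gad1* and *Gad2* code for the glutamate decarboxylases that make GABA, and neither passed the test. *Gad1* was at 382, 357 and 397 CPM in shCtrl and 344, 303 and 353 CPM in sh*Pla2g4e* (log2 fold change −0.19 ± 0.084 (SE), edgeR adjusted p = 0.171), and *Gad2* at 199.9, 179.7 and 196 against 169, 145 and 160 CPM (−0.28 ± 0.083, edgeR adjusted p = 0.0365). With the replicate block *Gad2* was called (edgeR adjusted p = 4.26e-04). The ratio of *Slc32a1* to the sum of *Gad1* and *Gad2* per kb of exon was 0.272, 0.268 and 0.254 in shCtrl and 0.191, 0.218 and 0.188 in sh*Pla2g4e*, a log2 difference of −0.41 without overlap.

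Of the 8 genes of GABA synthesis, uptake and breakdown, 3 fell, 0 rose and 5 did not pass, with a median log2 fold change of −0.34. At an unadjusted p of 0.05 none of the 8 was higher either, and limma after voom and DESeq2 both called 3 lower and 0 higher. Over all genes, 25.7% were below an unadjusted p of 0.05 in edgeR, limma after voom called 6.53% and DESeq2 11.6% of those it gave an adjusted p, and the counts given for these settings here and for the lists that follow are to be read against these shares. Those that fell included *Slc6a11* (GAT3, a GABA transporter enriched in astrocytes), which fell from 92.7 ± 12.4 to 48.4 ± 0.512 CPM (SD, n = 3 each; −0.94 ± 0.096 (SE), edgeR adjusted p = 1.15e-05), and *Abat* (GABA transaminase, which breaks GABA down) from 234 ± 13.9 to 177 ± 13.0 CPM (−0.40 ± 0.083, 0.00443).

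Genes of glutamate supply and uptake gave 3 that fell and 0 that rose among 19 tested, with a median log2 fold change of −0.08. At an unadjusted p of 0.05, 8 were lower and 3 higher, and limma after voom and DESeq2 each called 3 lower and 0 higher, but with the replicate block 7 were called lower and 3 higher. *Got1*, the cytosolic aspartate aminotransferase, fell from 125 ± 19.0 to 52.5 ± 3.89 CPM (SD, n = 3 each; −1.25 ± 0.105 (SE), edgeR adjusted p = 1.83e-06). *Slc25a22*, a mitochondrial glutamate carrier, fell by 0.51 on the log2 scale (SE 0.094, edgeR adjusted p = 0.00184) and *Slc1a2*, the main glutamate transporter of astrocytes, by 0.50 (SE 0.113, edgeR adjusted p = 0.00778).

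Among 13 other vesicular carriers, 9 were tested, and *Slc30a3* (ZnT3, which loads zinc into vesicles of glutamatergic neurons) was the 1 that fell, from 46.1 ± 4.42 to 30.8 ± 5.26 CPM (SD, n = 3 each; −0.59 ± 0.118 (SE), edgeR adjusted p = 0.00361), while 0 rose. At an unadjusted p of 0.05, 2 were higher, and limma after voom and DESeq2 called 0 higher. Of the other members of the Slc17 family, *Slc17a5* (sialin, a lysosomal sialic acid carrier) was at 21.1 ± 0.993 CPM in shCtrl and 22.0 ± 1.32 CPM in sh*Pla2g4e* and *Slc17a9*, a nucleotide carrier, at 2.21 ± 0.869 and 3.48 ± 1.01 CPM (SD, n = 3 each). Neither passed, and *Slc17a1* had no read in any library. The 20 subunits and accessory proteins of the vacuolar ATPase, the pump that powers all 4 transporters, gave 0 calls, with a median log2 fold change of −0.03. At an unadjusted p of 0.05, 1 of them was lower and 4 higher, and limma after voom and DESeq2 each called 1 lower and 0 higher. With the replicate block 1 was called lower and 2 higher.

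Over these 4 lists, 7 of the 56 genes tested were called, or 12.5%, all 7 as lower, beside 6.49% over all genes, and the median over the 56 log2 fold changes was −0.03 beside 0.029 over all genes. With the replicate block 13 were called lower and 5 higher, 15.5% being called over all genes in that fit. The calls of *Slc25a22*, *Slc1a2*, *Abat* and *Slc30a3* were each lost when single libraries of either group were left out, with edgeR adjusted p values of at most 0.0197, 0.0531, 0.0380 and 0.0203, while those of *Got1* and *Slc6a11* held without any single library.

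**Figure D4:**
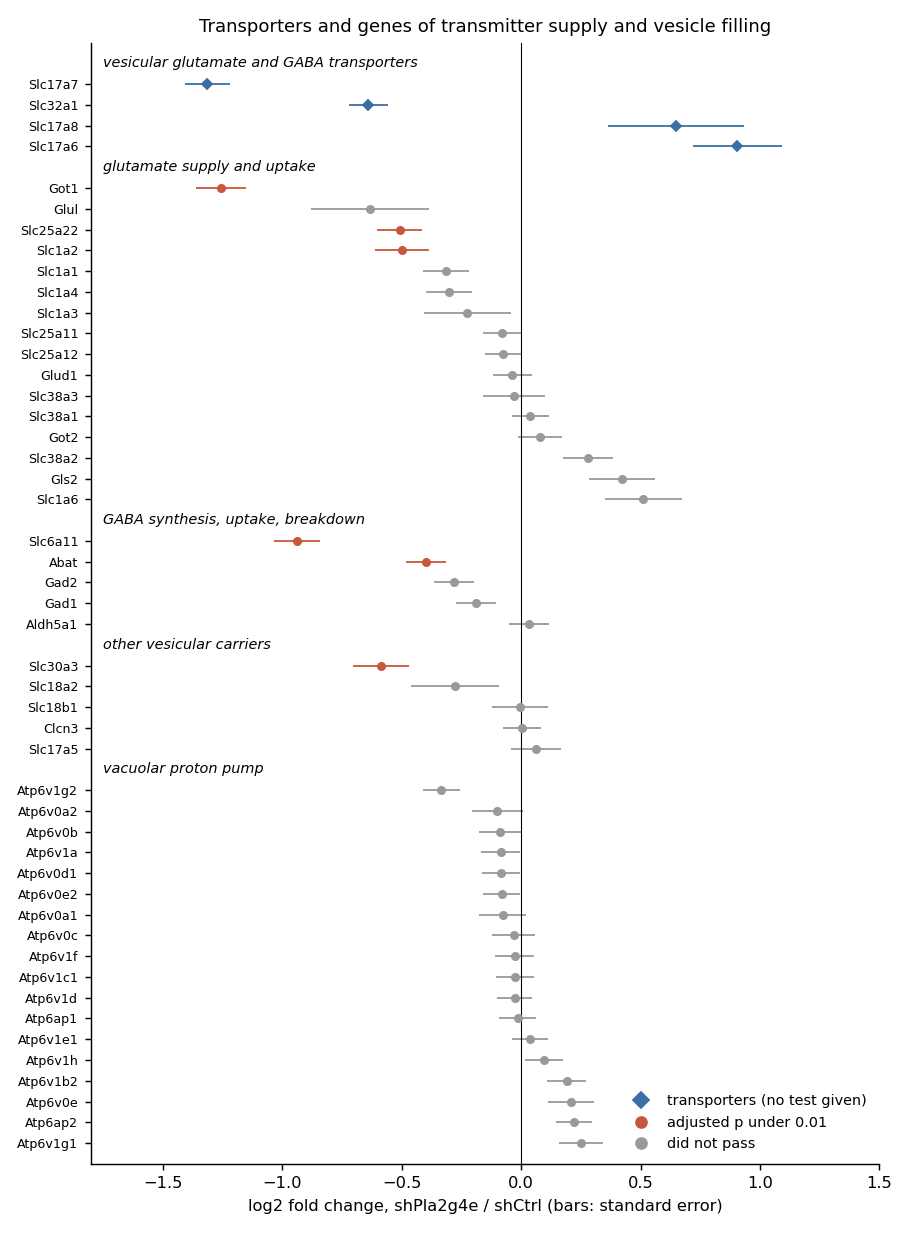
Log2 fold change of shPla2g4e over shCtrl with its standard error (edgeR, 3 libraries per group) for the 4 transporters (blue diamonds, no test given) and for the genes of the 4 lists reported here with a mean of at least 5 CPM in either group (circles, red where the adjusted p is under 0.01). Red points lie only to the left of 0, from −1.25 for Got1 to −0.40 for Abat, and none of the proton pump subunits is red.

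The marker genes of the neurons that carry these transporters were measured in the same libraries. In RNA from whole cultures, fewer cells of a type and less RNA per cell cannot be told apart. The summed level of 17 markers of forebrain glutamatergic neurons was 2364, 2260 and 2330 CPM in shCtrl and 2290, 2037 and 2393 CPM in sh*Pla2g4e*, so that the groups overlapped. *Camk2a*, a kinase of these neurons, made up the largest part of this sum, with 1051 and 1065 CPM in the groups. Of these 17, 2 fell and 1 rose, and the median log2 fold change was −0.22. At an unadjusted p of 0.05, 8 were lower and 4 higher, and with the replicate block 5 were called lower and 4 higher. *Neurod6*, a transcription factor of these neurons, fell by 0.47 (SE 0.088, edgeR adjusted p = 0.00204) and *Cux1*, an upper layer factor, by 0.46 (SE 0.096, edgeR adjusted p = 0.00425) on the log2 scale, and *Rorb*, a layer 4 factor named after its value was seen, rose by 0.46 (SE 0.104, edgeR adjusted p = 0.00793). Each of these 3 calls was lost without some single libraries, with edgeR adjusted p values of up to 0.0257, 0.0325 and 0.0377. *Slc17a7* relative to *Camk2a* went from 1.12, 1.08 and 0.776 to 0.394, 0.457 and 0.337 per kb of exon.

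The 18 markers of GABAergic neurons summed to 1146, 1083 and 1154 CPM in shCtrl and 1079, 1002 and 1127 CPM in sh*Pla2g4e*, again overlapping, with 2 that fell and 2 that rose (5 and 3 with the replicate block) and a median log2 fold change of −0.16. *Npy*, a neuropeptide of interneurons, rose from 25.3 ± 3.20 to 60.6 ± 3.14 CPM (SD, n = 3 each; 1.26 ± 0.101 (SE), edgeR adjusted p = 1.3e-06) and *Lhx6*, a factor of interneurons from the medial ganglionic eminence, fell from 27.0 ± 2.25 to 14.1 ± 1.65 CPM (−0.93 ± 0.120, 9.13e-05). The other two, named after their values were seen, were the neuropeptide gene *Sst*, which rose by 0.66, and the receptor gene *Erbb4*, which fell by 0.43 on the log2 scale (edgeR adjusted p = 1.76e-04 and 0.00146).

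The 15 pan-neuronal genes summed to 7586 to 8457 CPM in shCtrl and to 6969 to 7496 CPM in sh*Pla2g4e*, with 4 that fell and 2 that rose. Their median log2 fold change was −0.10, with 10 lower and 5 higher. *Map2*, named after its value was seen, had the highest level of them, 1638 CPM in shCtrl and 1196 CPM in sh*Pla2g4e*. It was 1 of the 4 that fell (edgeR adjusted p = 0.00123, lost without single libraries at up to 0.0157). The largest log2 fold change was that of *Tubb3*, a neuronal tubulin, which fell from 304 ± 37.6 to 94.9 ± 3.77 CPM (SD, n = 3 each; −1.68 ± 0.093 (SE), edgeR adjusted p = 3.68e-08). *Nefm*, a neurofilament subunit, rose by 0.68 (SE 0.112, edgeR adjusted p = 7.94e-04), with 19.2% of its exon bases under *Nefl* on the other strand. With the replicate block 5 were called lower and 3 higher. The part of these pan-neuronal differences in the transporters' levels was not tested.

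Other sources of the 2 transporters that were higher were looked for with marker lists. Of 10 markers of thalamic and subcortical glutamatergic neurons, which carry VGLUT2, 2 were at 0 in every library, 5 were tested and 0 were called. Their sum was 38.8 to 41.6 CPM in shCtrl and 32.9 to 36.9 CPM in sh*Pla2g4e*, most of it from *Prkcd* (27.4 and 24.6 CPM) and *Tcf7l2* (11.04 and 7.05 CPM). The median log2 fold change of the 5 was 0.78, with 2 lower and 3 higher, and *Lef1*, *Lhx9* and *Lmx1a*, the 3 that were higher, had mean levels of 0.159 to 1.57 CPM. The part of such neurons in the level of *Slc17a6* was not tested. At an unadjusted p of 0.05, 1 was lower and 0 were higher, and limma after voom and DESeq2 called 0, but with the replicate block *Tcf7l2* was called lower (log2 fold change −0.65, edgeR adjusted p = 3.91e-04, against 0.0364 without the block). Of 7 markers of Cajal-Retzius cells, early cortical neurons that also carry VGLUT2, *Reln* fell (−0.45 ± 0.106 (SE), edgeR adjusted p = 0.00944, lost without single libraries at up to 0.0581). The sum, 238 to 272 CPM in shCtrl and 158 to 219 CPM in sh*Pla2g4e*, is nearly all *Reln* (255.5 ± 19.1 and 187 ± 30.7 CPM; SD, n = 3 each), which interneurons also express. The next highest markers, *Trp73* and *Nhlh2*, were at 1.34 and 1.08 CPM in shCtrl and 1.37 and 1.57 CPM in sh*Pla2g4e*, none of the markers other than *Reln* was called, and the median log2 fold change of the list was 0.02. The 8 markers of monoaminergic and cholinergic neurons, some of which carry VGLUT3, summed to 7.47 to 8.56 CPM in shCtrl and 11.1 to 14.0 CPM in sh*Pla2g4e*. None was called by edgeR without the block or by limma after voom, and 1 was higher by DESeq2 and at an unadjusted p of 0.05. With the replicate block *Th*, which codes for tyrosine hydroxylase, was called higher (log2 fold change 0.86, edgeR adjusted p = 2e-04), and the part of these neurons in the level of *Slc17a8* was not tested.

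Astrocyte genes moved with the groups and with the replicate number. Their 9 markers, which include *Slc1a2*, summed to 2811, 3183 and 3599 CPM over replicates 1 to 3 of shCtrl and to 2076, 1916 and 3088 CPM over those of sh*Pla2g4e*. Replicate 3, where *Slc17a6* was lowest, was the highest in both groups, and the groups overlapped, whereas within each same-numbered pair the sh*Pla2g4e* sum was the lower. The median log2 fold change of the 9 was −0.28. With the replicate block 6 of them were called lower and 1 higher, in place of 2 lower and 0 higher. *Aqp4*, the water channel of astrocytes, fell from 148 ± 32.6 to 65.2 ± 25.9 CPM (SD, n = 3 each; −1.19 ± 0.199 (SE), edgeR adjusted p = 8.53e-04), though DESeq2 did not call it (adjusted p = 0.0124), and *Slc1a2* was the other of the 2 that fell. *Slc6a11* and *Slc1a2*, which fell among the uptake genes, are themselves genes of astrocytes, and the part of these cells in their fall was not tested. Markers of the oligodendrocyte lineage (9 genes, 525 to 593 CPM in shCtrl and 547 to 651 in sh*Pla2g4e*), microglia (8 tested of 9, 6.45 to 15.0 and 3.61 to 7.77 CPM) and endothelial and mural cells (6 tested of 8, 21.3 to 25.0 and 18.6 to 31.7 CPM) gave 0 calls by edgeR, limma after voom or DESeq2, at an unadjusted p of 0.05 they gave 1, 4 and 1 genes, and with the replicate block 1 call each.

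Over the 10 marker lists 11 of 102 genes fell and 5 rose, 15.7% against 6.49% over all genes, and with the replicate block 25 fell and 13 rose. Without single libraries the numbers ran from 4 to 13 and from 3 to 7.

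**Figure D5:**
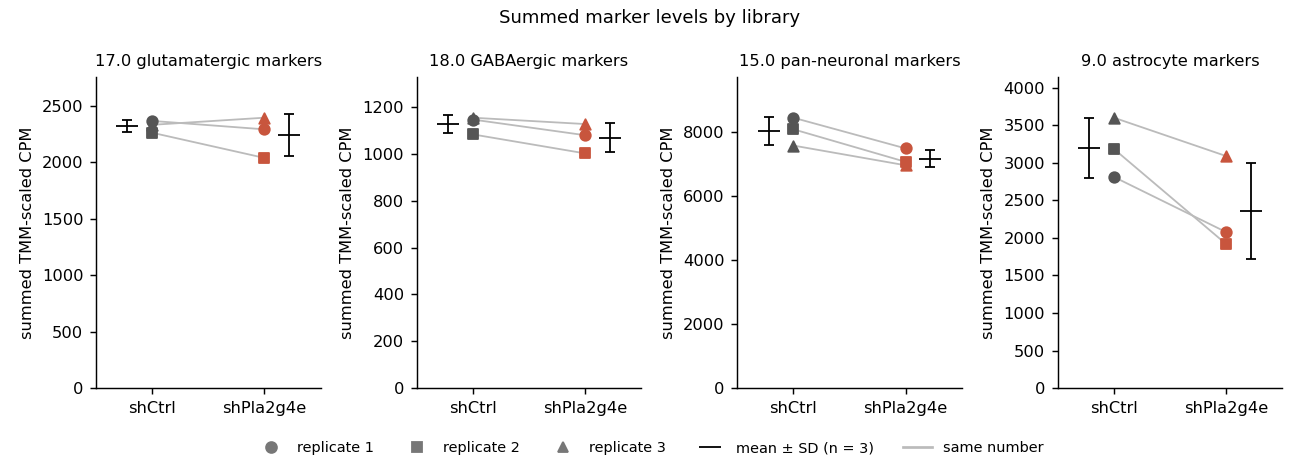
Summed TMM-scaled CPM (linear axes from 0) of the marker lists of glutamatergic neurons, GABAergic neurons, all neurons and astrocytes in each library; black bars are the mean ± SD (n = 3) and grey lines join same-numbered libraries. The glutamatergic and GABAergic sums overlap between groups, and the GABAergic sum is lower in shPla2g4e within each pair. The pan-neuronal sum, of which Map2 is the largest part, does not overlap. The astrocyte sum is highest in replicate 3 of both groups and lower in shPla2g4e within each pair.

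For each transporter, the 2 genes whose profile over the 6 libraries was nearest were found by the root mean square distance of centred log2 CPM among 10932 genes. The nearest to *Slc17a7* were *Thsd4* (distance 0.0471), with a mean of 37.8 CPM in shCtrl and 15.3 CPM in sh*Pla2g4e*, and *Jph3* (0.0811), a junctophilin, with 138 and 50.4 CPM. *Slc17a6* was less closely matched, by *Emp1* (0.122) and the syndecan gene *Sdc1* (0.133), whose levels were 17.2 and 9.12 CPM in shCtrl and 33.1 and 16.9 CPM in sh*Pla2g4e*. The nearest to *Slc17a8* were *Dhrs3* (0.0910) and the nuclear RNA *Malat1* (0.0914). *Slc32a1* had the closest matches of all, *Igf1r* (0.0233), the receptor of insulin-like growth factor 1, with 111 and 69.7 CPM, and *Tbc1d16* (0.0308), with 177 and 112 CPM. These distances describe 6 points in 2 groups and carry no test.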

How the data were processed

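RNA-seq libraries of 6 neuronal cultures, 3 shCtrl and 3 sh*Pla2g4e*, were grouped by their labelled treatment. The authors prepared stranded poly(A) libraries, aligned the reads with STAR 2.7.0d after FastQC 0.11.8 and deposited raw counts per gene from featureCounts 1.6.0, 1 file per library. Per the file headers the counts are of exons of GENCODE release M28, with no strand or read-pair option, and the labels name GRCm39, whereas the methods of the study name mm10 and Gencode M18. Reads that fit several genes were thus not assigned, each mate of a pair would count by itself, and levels of overlapping genes are lowered. Between 17054717 and 23570180 reads were counted per library. Nothing says that the replicates came from separate preparations, so p-values measure the spread between these cultures, which may be technical.

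Symbols, transcripts and seed sites came from GENCODE vM21 (GRCm38), matched by identifier for 52081 genes. The 3276 without a match held 0.286% to 0.387% of the reads and stayed in the tests. Gene coordinates are those of the deposited counts. Differential expression was tested with edgeR 4.0.16 (TMM, quasi-likelihood) in R 4.3.3 on 21876 genes, those that reached 6 reads in any library, with Benjamini-Hochberg adjustment over all of them and a threshold of 0.01. Filter and threshold are those of the study, which used limma after voom. The code of the test was checked on simulated counts in which all libraries were independent. That check does not cover differences shared by same-numbered libraries. CPM were scaled by TMM, and ratios are of reads per kb of exon. Counting intervals are exact Poisson or binomial ones at 95% and cover counting error only. Same-numbered libraries deviated together from their group means (r = 0.393, 0.180 and 0.462 over 10932 genes, and −0.399 to 0.115 for unlike numbers), so the numbers were also used as pairs. Alternatives were limma 3.58.1 after voom, DESeq2 1.42.0 (5514 genes without an adjusted p), other scalings and filters, a looser threshold (0.05), the block and the removal of single libraries.

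The transporters and the gene lists were chosen with earlier results of these data known. Named genes are the transporters, *Pla2g4e*, up to 3 called genes with the smallest p in a pathway list, a few named whatever their values (*Slc1a2*, *Gad1*, *Gad2* and *Slc30a3*, with 2 more that are not reported here but stay in the counts over lists), up to 2 called genes in a marker list, and the 2 nearest profiles of each transporter. *Slc17a1*, *Slc17a5*, *Slc17a9*, *Camk2a*, *Map2*, *Rorb*, *Sst*, *Erbb4*, *Trp73*, *Nhlh2*, *Prkcd*, *Tcf7l2*, *Lef1*, *Lhx9*, *Lmx1a* and *Th* were added once their values were known. Sequences were aligned with Biopython 1.88. No protein sequences were used here.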

Additional observations from a re-analysis of the deposited data

How the results depend on the processing

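The transporters kept their direction under every alternative run, and 1 value moved by more than the spread between replicates: *Slc32a1* at −0.56 when scaled by library size alone. Leaving out 1 library at a time gave log2 fold changes of −1.41 to −1.22 for *Slc17a7*, 0.70 to 1.10 for *Slc17a6*, 0.50 to 0.79 for *Slc17a8* and −0.67 to −0.60 for *Slc32a1*. Log2 differences of the ratios ran from 2.02 to 2.44 for *Slc17a6* to *Slc17a7*, 1.72 to 2.11 for *Slc17a8* to *Slc17a7*, −0.56 to 0.04 for *Slc17a8* to *Slc17a6* (reversed, 0.03803, without shCtrl replicate 3), 0.61 to 0.76 for *Slc32a1* to *Slc17a7*, −1.77 to −1.30 for *Slc32a1* to *Slc17a6*, −1.48 to −1.10 for *Slc32a1* to *Slc17a8*, −0.48 to −0.32 for all VGLUT to *Slc32a1* and −0.48 to −0.37 for *Slc32a1* to *Gad1* and *Gad2*. Taking the length of the coding transcript moved the shCtrl levels of the ratios to log2 values of −4.51 (*Slc17a6* to *Slc17a7*), −9.53 (*Slc17a8* to *Slc17a7*), −3.55 (*Slc32a1* to *Slc17a7*), 3.61 (all VGLUT to *Slc32a1*) and −2.75 (*Slc32a1* to *Gad1* and *Gad2*), and counting only exon bases shared with no other gene, an alternative chosen after seeing the data, moved those with *Slc32a1* to −2.25 (to *Slc17a7*), 1.76 (to *Slc17a6*), 6.48 (to *Slc17a8*), 2.34 (all VGLUT to it) and −1.50 (to *Gad1* and *Gad2*), since the length enters as a constant. Genes called lower and higher over all genes numbered 876 and 543, and 1360 and 989 without a filter, 1973 and 1422 with the replicate block, 1599 and 1214 at 0.05, and 449 to 932 and 246 to 681 without single libraries, with fewest without shCtrl replicate 2. Scaling by library size alone changed the share of lower calls from 61.7% to 43.3% and the median log2 fold change from 0.029 to 0.103. Pathway genes called lower numbered 7, and 12 without a filter, 13 with the block, 11 at 0.05 and 3 to 9 without single libraries. Those called higher numbered 0 without any single library, 1 with library size scaling, 5 with the block and 1 at 0.05. Marker genes, for which the alternatives were added after seeing the data, were called lower 7 times with library size scaling, 17 without a filter, 25 with the block, 19 at 0.05 and 4 to 13 without single libraries, and higher 8 times by DESeq2, 8 with library size scaling, 13 without a filter, 13 with the block, 11 at 0.05 and 3 to 7 without single libraries. Among the named genes the block turned the calls of *Gad2*, *Tcf7l2* and *Th*, and no other. Calls were lost for *Slc1a2* without any library but sh*Pla2g4e* replicate 3, for *Slc30a3* without shCtrl replicates 1 or 3 or sh*Pla2g4e* replicates 1 or 2, for *Slc25a22* without shCtrl replicates 1 or 2 or sh*Pla2g4e* replicate 1, for *Abat* without the same 3, for *Neurod6* without replicate 2 of either group, for *Cux1* without shCtrl replicates 1 or 2 or sh*Pla2g4e* replicates 1 or 2, and for *Reln* without shCtrl replicates 1 or 2 or sh*Pla2g4e* replicates 2 or 3. Other settings ended calls for *Slc1a2* and *Reln* (upper quartile or library size scaling, and at least 10 reads in every library), *Abat* and *Cux1* (library size scaling) and *Aqp4* (DESeq2). The causes were not tested. Depth limits *Slc17a8*, with 25 to 60 reads a library.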
